A study of Mus musculus with 4 samples.

Results

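The genes described here encode protein splicing factors of 3 families: the SR proteins (symbols starting with Srsf), the heterogeneous nuclear ribonucleoproteins (hnRNPs, Hnrnp) and the proteins of the small nuclear ribonucleoproteins (snRNPs, Snrp). They are the protein-coding genes of GENCODE M21 whose symbol starts with Srsf, Hnrnp or Snrp. This rule uses no expression value, but the families were chosen with earlier results of these data known. The rule found 43 of the 34866 genes in the table, with 11 SR, 20 hnRNP and 12 snRNP genes.

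RNA-seq was performed on B220+ IgM+ splenocytes sorted from 2 λ-MYC mice, each with an IgM+ tumor that contained Tom+ cells (tumors #1 and #2). Each spleen gave 1 Tom- and 1 Tom+ library, 4 libraries in all, with no further replicate. All 4 share the alleles λ-MYC+/TG and R26tdTom+/ki and a Cre allele, and in them a human MYC gene from a Burkitt lymphoma line is driven by regulatory sequences of the λ light chain. Cre switches on the Tomato reporter for good, so Tom+ cells are those that expressed Cre themselves or descend from a cell that did, and Tom- cells are those of the same spleen without the mark. The sources used here do not give the age or sex of these mice. Tumor and mouse cannot be told apart, because each tumor is 1 mouse.

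Introns are removed from pre-mRNA by the spliceosome, whose U1, U2, U4 and U5 particles each carry a ring of Sm proteins around a small nuclear RNA. SR proteins mostly bind exons and help the particles to recognize splice sites, while hnRNPs coat pre-mRNA and often act in the opposite direction, and the balance between the families sets the choice of many alternative exons. MYC is known to raise the transcription of several of these genes, and lymphomas driven by MYC are known to be sensitive to a loss of spliceosome assembly.

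Expression is given as TPM, in which reads are divided by transcript length and every library is scaled to a sum of 1000000, so that levels can be compared between genes. TPM do not keep the sequencing depth, which is therefore unknown, and counting error cannot be stated. Differences were taken on log2(TPM + 1) and tested by limma's moderated test with tumor and Tom status as terms, over the 11339 genes that reached 1 TPM in 2 or more libraries. Benjamini-Hochberg adjustment of the p-values ran over all of these genes, errors are limma's standard errors (SE), and a gene was called at an adjusted p-value below 0.05. Genes that reached the TPM limit are those called tested. In this design 1 residual degree of freedom is left for each gene.

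Several features of the libraries differed between the tumors. Pseudogenes held 30.3% to 31.3% of the TPM in tumor #1 and 23.4% to 25.4% in tumor #2, and mitochondrial genes held 6.61% to 8.67% and 14.4% to 15.6%. The 7 B cell markers were all present, with a summed TPM of 2205 to 2327 in tumor #1 and 4681 to 5585 in tumor #2. Markers of T, NK and myeloid cells were low, with at most 18.9 TPM summed over 7 T cell genes, 0.978 TPM over 6 NK cell genes (Ncr1, Klrd1, Gzma and Gzmb at 0 in all libraries) and 8.92 TPM over 8 myeloid genes (Cd14 at 0). Plasma cell markers reached 341 TPM in Tom+ cells of tumor #2, of which Jchain held 209 TPM, against 129 to 179 TPM elsewhere. The 16 proliferation genes summed to 2399 and 2494 TPM for the Tom- and Tom+ fractions of tumor #1 against 1377 and 1225 TPM in tumor #2. The part of these features in the differences described below was not tested.

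All 3 families were abundant, and together they took 1.46% and 1.64% of the TPM in the Tom- and Tom+ fractions of tumor #1 and 1.54% and 1.39% in those of tumor #2. The hnRNP genes made up most of this, with 0.994% to 1.22% of a library. Of the 43 genes, 40 passed the limit for testing (10 SR, 19 hnRNP and 11 snRNP). Srsf12, a tissue-restricted relative of Srsf10, was listed at 0 in 3 libraries and at 0.0294 TPM in Tom- cells of tumor #2. Hnrnpll, the paralog of Hnrnpl that is known for the switch of Ptprc (CD45) exons in activated T cells and plasma cells, was at 0.182 and 0.392 TPM in tumor #1 against 0.652 and 0.576 TPM in tumor #2. Snrpn, the imprinted relative of Snrpb that is used mainly in neurons, was listed at 0 in all 4 libraries, as was Snurf, which shares its transcript. The Snrpn and Snrpb proteins are nearly identical, and reads that fit both genes can be assigned to either.

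**Figure D1:**
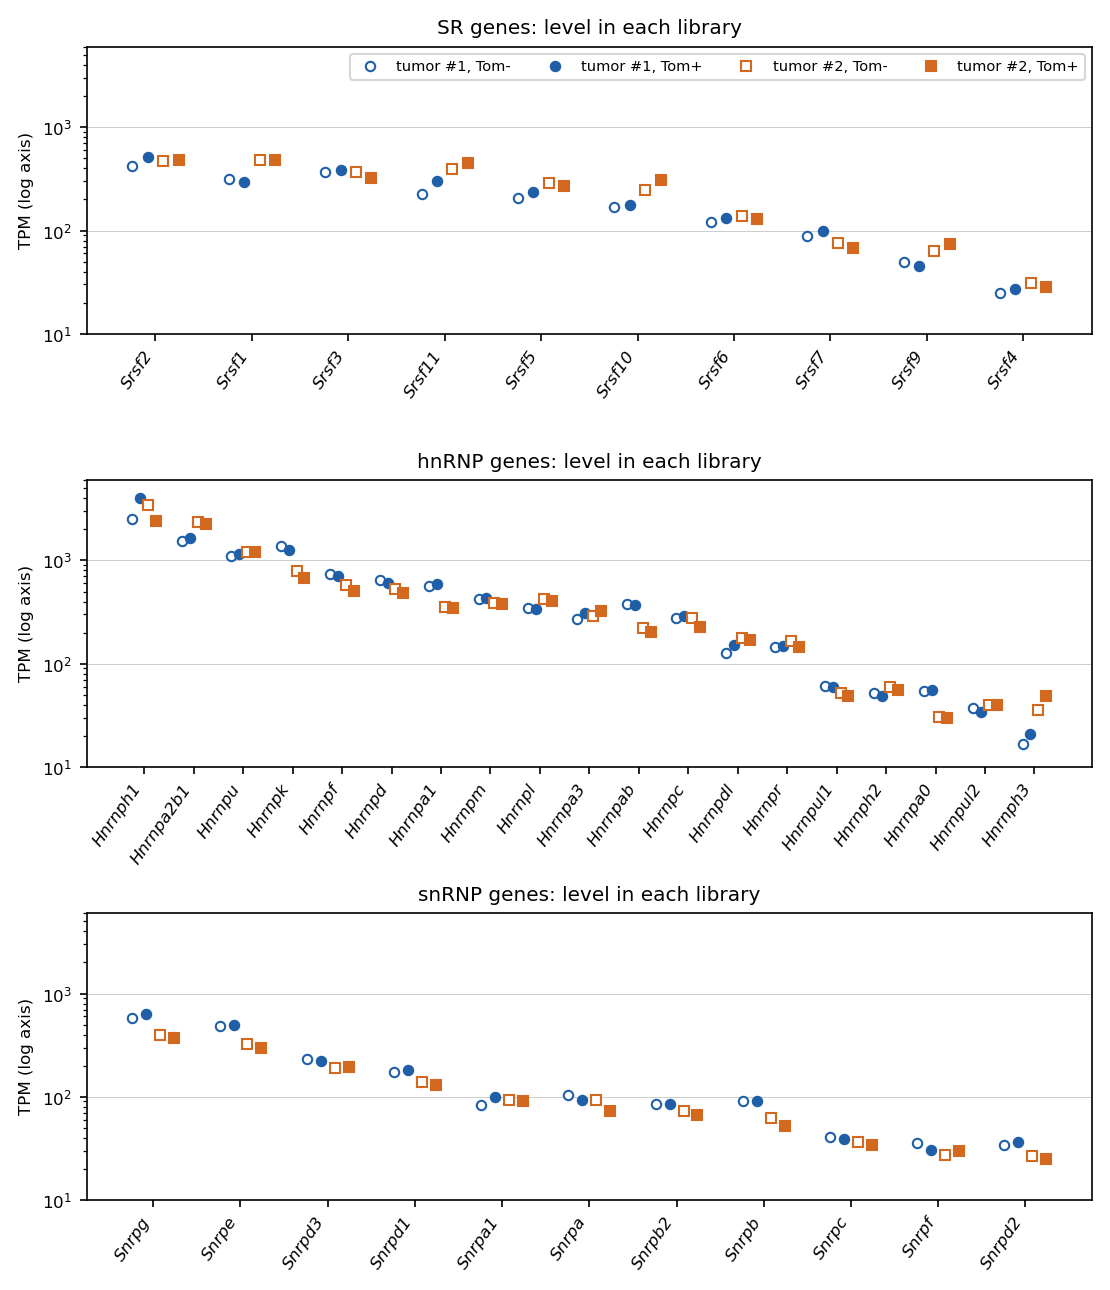
Level of each tested SR, hnRNP and snRNP gene in the 4 libraries (TPM, log axis, genes in order of mean TPM). Open symbols are Tom- and filled symbols Tom+ libraries, circles are tumor #1 and squares tumor #2, and for most genes the symbols of the same tumor lie next to each other. Srsf12, Hnrnpll and Snrpn were not tested and are not drawn.

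The most abundant members were hnRNP genes. Hnrnph1, which encodes a regulator that binds G runs, had a mean of 3097 TPM over the 4 libraries, and Hnrnpa2b1, which encodes an RNA-binding protein of splicing and transport, had 1939.5 TPM. They were followed by Hnrnpu at 1168 TPM, the gene of the nuclear scaffold attachment factor A, and Hnrnpk at 1026 TPM, the gene of a poly(C)-binding protein. The highest SR genes were Srsf2, which encodes SC35, with a mean of 473 TPM, and Srsf1, which encodes SF2/ASF, with 395 TPM. The lowest of the tested SR genes was Srsf4 at 27.8 TPM. Among the snRNP genes, Snrpg and Snrpe of the Sm ring had means of 491 and 401 TPM, and Snrpd2 and Snrpf of the same ring had 30.6 and 30.8 TPM.

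The proteins of the Sm ring are needed in equal numbers, since each particle holds 1 each of B, D1, D2, D3, E, F and G, but their genes were far from equal in TPM. The highest of the 7 genes was at 16.8 and 20.5 times the lowest for the Tom- and Tom+ fractions of tumor #1 against 14.7 and 14.8 times in those of tumor #2. Snrpg was the highest in each library, at 574, 627, 396 and 368 TPM in the same order. The lowest was Snrpd2 or Snrpf, and both have pseudogene copies with a higher TPM than the gene itself, described further down. The order of the Sm genes therefore depends on how copies are counted. The copies of Snrpf alone, at 1366, 1481, 825 and 687 TPM, exceeded Snrpg in each library.

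The first comparison asked whether lymphoma cells with a history of Cre expression differ from their Tom- counterparts. No gene of the 3 families was called between Tom+ and Tom- cells (0 of 40, against 0.0% of all genes tested), and the lowest adjusted p-value was 0.936 from limma. The study's own paired test on counts did report genes that differed between Tom+ and Tom- cells. Since the fit used here called none of all genes tested, its count of 0 is not particular to the members. At an unadjusted p-value below 0.05, the count was also 0 of 40, against 4.67% of all genes tested (530 of 11339), and the lowest p-value was 0.0860, that of Hnrnph3. The 95% intervals of all 40 log2 differences held 0. Apart from Hnrnph1, whose interval ran from -0.96 to 1.12, the ends of the intervals lay between -0.68 (Snrpa) and 0.86 (Hnrnph3).

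The differences were also small in size. The log2 difference between Tom+ and Tom- was under 0.2 in absolute value for 37 of the 40 genes (92.5%), against 54.6% of all genes tested and 65.2% of the protein-coding genes with a mean of at least 20 TPM. The 3 others were Hnrnph3, Srsf11 and Snrpa. The median difference was 0.03 for SR genes (0.12 in tumor #1 and -0.04 in tumor #2), -0.06 for hnRNP genes (0.04 and -0.07) and -0.04 for snRNP genes (0.01 and -0.11), beside -0.03 for all genes tested. The negative medians were not stable to scaling: that of hnRNP genes turned to 0.03 when TPM were rescaled to nuclear protein-coding genes without immunoglobulin genes, and that of snRNP genes turned to 0.02 there and with quantile normalization. Libraries of Tom+ and Tom- cells did not overlap for 3 genes (Srsf2 and Hnrnpa3 higher in Tom+, Snrpa lower), against 16.3% of all genes tested, of which 6.42% were higher and 9.86% lower. The values of Hnrnpa3 depend on how its pseudogene copies are counted, as described further down.

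Among SR genes, Srsf11 had the largest difference. Srsf11 (chromosome 3, 158010473 to 158036639 of GRCm38), which encodes an SR-related protein of the early spliceosome, was at 225 and 299 TPM for the Tom- and Tom+ fractions of tumor #1 against 396 and 449.5 TPM in tumor #2. Tom+ was the higher in both tumors, with a log2 difference of 0.30 (SE 0.13), but the Tom- library of tumor #2 lay above the Tom+ library of tumor #1. Srsf10, whose product acts as a repressor when it loses its phosphates, was at 168 and 177 TPM in tumor #1 against 248 and 307 TPM in tumor #2 (0.19, SE 0.13). Srsf2 was at 426 and 512 TPM in tumor #1 against 476 and 478 TPM in tumor #2. Its difference of 0.14 (SE 0.13) came from tumor #1 (0.27), since tumor #2 gave 0.01.

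The other 7 tested SR genes had differences between -0.06 (Srsf3) and 0.05 (Srsf5), and each of them went in opposite directions in the tumors. Srsf1, a factor that MYC is known to induce, was at 313 and 298 TPM in tumor #1 against 481 and 487 TPM in tumor #2 (-0.03, SE 0.12).

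The hnRNP gene with the largest difference was Hnrnph3, a low member of the group that binds G runs. It was at 16.7 and 20.9 TPM in tumor #1 against 35.6 and 49.1 TPM in tumor #2, higher in Tom+ cells of both (log2 difference 0.38, SE 0.16). Hnrnpa3 was at 271 and 308 TPM in tumor #1 against 287 and 324 TPM in tumor #2, with nearly the same difference in each (0.18 and 0.17, SE 0.11). When its pseudogene copies, described further down, were added, the difference of Hnrnpa3 was -0.02. Hnrnpk went the other way, with 1371 and 1256 TPM in tumor #1 against 796 and 681 TPM in tumor #2 (-0.18, SE 0.11).

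Hnrnph1 was the member least alike between the tumors. It was at 2545 and 4001 TPM for the Tom- and Tom+ fractions of tumor #1 against 3422 and 2419 TPM in those of tumor #2, which gave 0.65 and -0.50 and an SE of 0.34. Within each tumor its difference had the sign of that of a list of 6 immediate-early and heat shock genes, which summed to 21.8 and 100.04 TPM in tumor #1 and to 13.4 and 8.64 TPM in tumor #2, led by Fos at 16.4, 79.2, 5.59 and 3.19 TPM. Between the Tom- libraries the signs were opposite, with Hnrnph1 higher and the list lower in tumor #2. The part of this in the Hnrnph1 values was not tested. The other 15 tested hnRNP genes had differences between -0.13 (Hnrnpf) and 0.11 (Hnrnpdl). Without Hnrnph1, the summed TPM of hnRNP genes was nearly level between the sorted fractions, at 8137 and 8208 TPM in tumor #1 against 7973 and 7523 TPM in tumor #2, whereas with it the sums were 10682, 12209, 11395 and 9942 TPM.

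Of the snRNP genes, Snrpa had the largest difference. It encodes the A protein of U1, which binds a loop of U1 RNA, and was at 103 and 92.3 TPM in tumor #1 against 92.7 and 72.7 TPM in tumor #2 (log2 difference -0.25, SE 0.14). Both Tom+ libraries lay below both Tom- libraries, though the highest Tom+ and the lowest Tom- value were nearly equal. Snrpb, the gene of the largest Sm proteins, was at 91.2 and 92.0 TPM in tumor #1 against 62.2 and 51.7 TPM in tumor #2 (-0.13, SE 0.15). Snrpa1, which encodes the A' protein of U2, was at 82.5 and 100.5 TPM in tumor #1 against 93.2 and 90.5 TPM in tumor #2 (0.12, SE 0.16). Its gene overlaps the readthrough gene Gm45213, listed at 0 and 15.6 TPM in tumor #1 against 13.5 and 0 TPM in tumor #2, and reads in the overlap can be assigned to either. The part of this in the Snrpa1 values was not tested. The other 8 tested snRNP genes had differences between -0.08 (Snrpc) and 0.01 (Snrpg).

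The tumors did not share a direction for most members. Of the 40 genes, 5 had a higher and 11 a lower value in Tom+ cells of each tumor, against 21.6% and 29.5% of all genes tested (51.2% together), and 24 were mixed. Of these 24, 20 were higher in Tom+ cells of tumor #1 and lower in those of tumor #2, a pattern held by 26.7% of all genes tested, and 4 were the reverse. It was seen in 5 of 10 SR, 9 of 19 hnRNP and 6 of 11 snRNP genes. In tumor #1, 25 of 40 genes were higher in Tom+ cells, against 48.6% of all genes tested. In tumor #2, 17 of 19 hnRNP and 9 of 11 snRNP genes were lower in Tom+ cells, as were 56.6% of all genes tested. Members are not replicates of each other, and these counts carry no test.

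**Figure D2:**
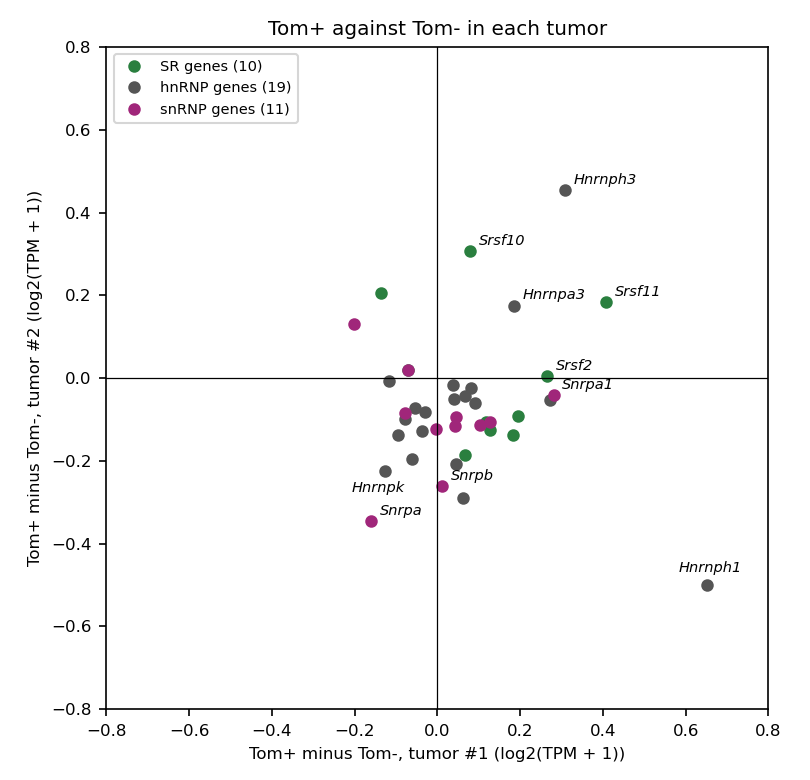
Difference between Tom+ and Tom- cells in tumor #1 (horizontal axis) and tumor #2 (vertical axis), in log2(TPM + 1), with 1 point per tested gene and colors for the families. Most points lie near 0, 20 of 40 fall to the lower right of the origin, and Hnrnph1 stands apart at 0.65 and -0.50.

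The larger differences were between the tumors. Of the sum of squares of the 40 tested members on the log2 scale, 87.1% lay between tumors #1 and #2, 5.64% between Tom+ and Tom-, and 7.26% in the remainder, beside 69.9%, 15.04% and 15.05% over all genes tested. Even so, 0 of 40 members were called between the tumors after adjustment, against 4.33% of all genes tested (491 of 11339), and the lowest adjusted p-value was 0.0573 (Hnrnpk). That background was itself fragile: it was 1 gene of all tested with a pseudocount of 0.1, without a filter or with quantile normalization. At an unadjusted p-value below 0.05, 15 of 40 differed, 6 higher and 9 lower in tumor #2, against 36.7% of all genes tested, of which 25.7% were higher and 11.0% lower. These p-values compare 2 mice, each through 2 sorted fractions of 1 spleen. The adjusted count depended on the scaling and on the model. It was 3 with trimmed-mean scaling (Hnrnpa1, Hnrnpab and Hnrnpk, all lower), against 5.19% of all genes tested there. It was 11 when TPM were rescaled to nuclear protein-coding genes without immunoglobulin genes and 11 without a term for Tom status, but the share over all genes was then 21.4% and 19.7%.

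The families did not move together. The median difference, tumor #2 minus tumor #1, was 0.26 for SR genes, -0.15 for hnRNP genes (0.05 with rescaling to protein-coding genes) and -0.29 for snRNP genes, while all genes tested had a median of 0.20. That general shift was itself a matter of scaling, since it was -0.01 with trimmed-mean scaling, -0.08 with quantile normalization and 0.31 with rescaling to protein-coding genes. Relative to it, the SR median stood at 0.05, the hnRNP median stood at -0.35 and the snRNP median at -0.49. The snRNP value remained negative with each scaling (-0.52, -0.32 and -0.52 in the order just given) and the SR value positive (0.03, 0.36 and 0.03), but the hnRNP value turned from -0.39 with trimmed-mean scaling to 0.04 with quantile normalization. Protein-coding genes with a mean of at least 20 TPM had a median of 0.04, below that of all genes, and the snRNP genes lay below this value too.

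**Figure D3:**
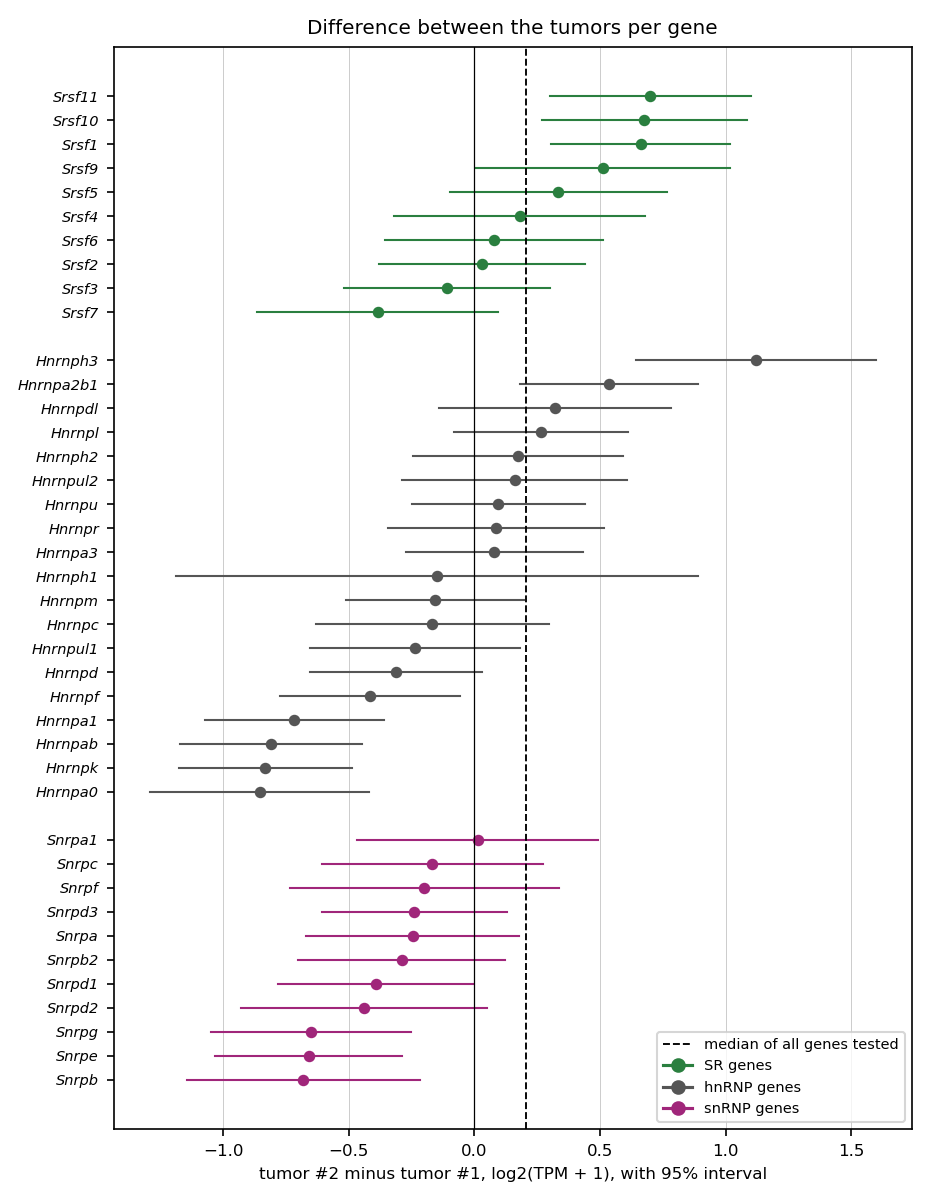
Difference between the tumors for each tested gene, tumor #2 minus tumor #1 in log2(TPM + 1), with the 95% interval from limma (3.21 degrees of freedom). Each tumor is 1 mouse, and the intervals do not measure the variation between mice. The dashed line marks the median of all genes tested (0.20), and all 11 snRNP genes lie to its left, beside 15 of 19 hnRNP and 5 of 10 SR genes.

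The snRNP genes were lower in tumor #2 nearly without exception. Over all members, libraries of the 2 tumors did not overlap for 31 of 40, 13 higher and 18 lower in tumor #2, against 68.5% of all genes tested (44.8% higher and 23.7% lower). Of the 11 snRNP genes this held for 9, all lower in tumor #2, against the same 23.7% and against 32.7% of the protein-coding genes with a mean of at least 20 TPM. Snrpe (chromosome 1, 133603871 to 133610291) was at 484 and 499 TPM in tumor #1 against 323 and 298 TPM in tumor #2, a log2 difference of -0.66 (SE 0.12, adjusted p = 0.0709 from limma). Snrpg was at 574 and 627 TPM against 396 and 368 TPM (-0.65, SE 0.13, adjusted p = 0.0758), and Snrpb at 91.2 and 92.0 TPM against 62.2 and 51.7 TPM (-0.68, SE 0.15, adjusted p = 0.0845). All 3 belong to the Sm ring, and in each the gap between the tumors was wider than that between the sorted fractions.

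The other Sm genes followed with smaller differences. Snrpd2 had -0.44, Snrpd1 -0.39, Snrpd3 -0.24 and Snrpf -0.20. This order depends on how pseudogene copies are counted, since with copies added Snrpf had -0.90 and Snrpd2 -0.87, beyond Snrpe with -0.74 and Snrpg with -0.63. The genes of particle-specific proteins were Snrpb2 (U2) with -0.29, Snrpa (U1) with -0.25, Snrpc (U1) with -0.17 and Snrpa1 (U2) with 0.01. The 16 proliferation genes, which moved in the same direction, had a median difference of -0.94, all 16 lower in tumor #2 and 13 with an unadjusted p-value below 0.05. Of all genes tested, 4329 of 11339 were lower in tumor #2, and 11.0% were lower and past this limit. The part of proliferation in the snRNP difference was not tested.

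Among SR genes, 4 of 10 had an unadjusted p-value below 0.05, all higher in tumor #2, beside 25.7% of all genes tested that were past this limit and higher. Srsf11 had 0.70 (SE 0.13, adjusted p = 0.0714), Srsf10 0.68 (SE 0.13, adjusted p = 0.0754) and Srsf1 0.66 (SE 0.12, adjusted p = 0.0682), from the values given above. Srsf9, the closest paralog of Srsf1, was at 49.8 and 45.2 TPM in tumor #1 against 63.4 and 73.3 TPM in tumor #2 (0.51, SE 0.17, adjusted p = 0.134). Srsf7 went the other way, at 87.9 and 99.9 TPM against 75.0 and 68.1 TPM (-0.39, SE 0.16, adjusted p = 0.186). Srsf5 and Srsf4 had 0.33 and 0.18, while Srsf2, Srsf3 and Srsf6 had overlapping values in the tumors.

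The hnRNP genes had the widest range of differences, from -0.86 to 1.12, though their median absolute difference (0.26) was below that of SR (0.36) and snRNP genes (0.29). Hnrnph3 had the largest difference of all members, 1.12 (SE 0.16, adjusted p = 0.0584), higher in tumor #2. The span of its gene meets that of Rufy2 on the opposite strand, which was at 4.93 and 5.23 TPM in tumor #1 against 14.7 and 15.6 TPM in tumor #2, and reads of the 2 genes cannot be told apart where they overlap unless strand was used, which is not given in the sources used here. Hnrnpa2b1 was also higher in tumor #2, at 1534 and 1634 TPM against 2342 and 2247 TPM (0.53, SE 0.12, adjusted p = 0.0822).

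Lower in tumor #2 were Hnrnpa0, Hnrnpk, Hnrnpab, Hnrnpa1 and Hnrnpf. Hnrnpa0, a single-exon relative of Hnrnpa1, was at 54.2 and 55.7 TPM in tumor #1 against 30.1 and 29.7 TPM in tumor #2 (-0.86, SE 0.14, adjusted p = 0.0655). Hnrnpk had -0.83 (SE 0.11). Hnrnpab was at 379 and 369 TPM against 223 and 203 TPM (-0.81, SE 0.12, adjusted p = 0.0599). Hnrnpa1, the classical antagonist of Srsf1 in the choice of splice sites, was at 567 and 593 TPM against 357 and 347 TPM (-0.72, SE 0.12, adjusted p = 0.0644). Hnrnpf was at 733 and 703 TPM against 575 and 502 TPM (-0.42, SE 0.12). Hnrnpd and Hnrnpdl, paralogs that bind AU-rich elements, had -0.31 and 0.32, while Hnrnph2 had 0.17, Hnrnpa3 0.08 and Hnrnph1 -0.15. Hnrnpu, Hnrnpm, Hnrnpc, Hnrnpr, Hnrnpl and the 2 Hnrnpul genes had differences between -0.24 and 0.26.

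Ratios within a library do not depend on a factor by which the whole library is scaled. The summed TPM of SR genes was 1986 and 2209 in the Tom- and Tom+ fractions of tumor #1 and 2566 and 2613 in tumor #2, and that of snRNP genes was 1939, 2004, 1461 and 1361. The SR sum was thus 1.02 and 1.10 times the snRNP sum in tumor #1 and 1.76 and 1.92 times in tumor #2. Srsf1 was at 0.553 and 0.503 times Hnrnpa1 in tumor #1 and at 1.35 and 1.41 times in tumor #2, so the order of the 2 antagonists differed between the tumors. Both ratios depend on pseudogene copies, which are described further down. When copies were added to their genes, an alternative chosen after the data were seen, the SR sum was 0.615 and 0.632 times the snRNP sum in tumor #1 and 1.08 and 1.24 times in tumor #2, and Srsf1 was 0.331 and 0.338 times Hnrnpa1 in tumor #1 and 1.00 and 1.10 times in tumor #2. Srsf1 and Hnrnpa1 were then nearly equal in Tom- cells of tumor #2, while the ratios remained higher in tumor #2. In both ratios the libraries of a tumor lay close together and far from the other tumor, and the ratio of SR to snRNP genes was slightly higher in Tom+ cells of each tumor.

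**Figure D4:**
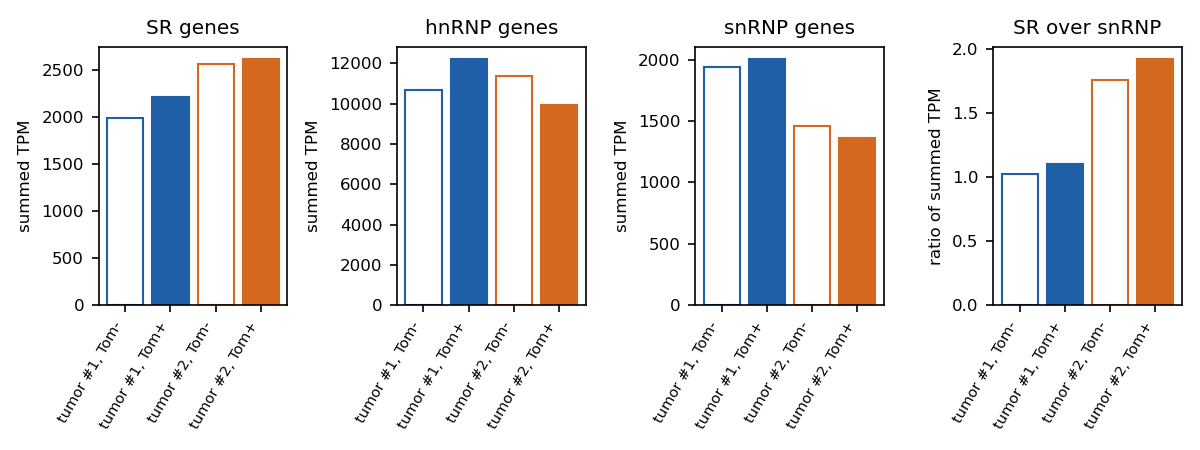
Summed TPM of the SR, hnRNP and snRNP genes in each library, and the ratio of the SR to the snRNP sum (open bars Tom-, filled bars Tom+, blue tumor #1, orange tumor #2, all axes from 0). The SR sum is higher and the snRNP sum lower in tumor #2, and the ratio is 1.02 and 1.10 in tumor #1 and 1.76 and 1.92 in tumor #2.

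Closely related genes were compared as shares of their set, and whether they can stand in for each other was not tested. Within Hnrnpa0, Hnrnpa1, Hnrnpa2b1 and Hnrnpa3, Hnrnpa1 held 23.4% and 22.9% of the TPM in tumor #1 and 11.8% and 11.8% in tumor #2, and Hnrnpa2b1 held 63.2%, 63.1%, 77.6% and 76.2%. Hnrnpa2b1 was at 2.71 and 2.76 times Hnrnpa1 in tumor #1 and at 6.55 and 6.48 times in tumor #2. With pseudogene copies added, these ratios were 1.62, 1.85, 4.88 and 5.09, and the share of Hnrnpa2b1 was 43.7%, 46.1%, 64.7% and 64.8%. In the set of AU-rich element binding proteins, Hnrnpab held 32.9% and 32.8% in tumor #1 against 24.0% and 23.9% in tumor #2, and Hnrnpdl 10.9%, 13.5%, 19.0% and 19.9%, while Hnrnpd kept between 53.8% and 57.0%. These shifts lay between the tumors, and within a tumor no share of these 2 sets differed by more than 2.57 percentage points between Tom+ and Tom- cells.

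In 4 other sets the shares differed little between libraries. Srsf1 held 86.3% to 88.4% of its pair with Srsf9, Srsf3 79.3% to 83.1% of its pair with Srsf7, and Srsf5 58.5% to 63.2% of the TPM of Srsf4, Srsf5 and Srsf6. Hnrnpu held 91.9% to 93.1% of its set with Hnrnpul1 and Hnrnpul2. Snrpa held 54.7% and 51.9% of its pair with Snrpb2 in tumor #1 and 56.0% and 52.1% in tumor #2, lower in Tom+ cells of both. In the set of Hnrnpf, Hnrnph1, Hnrnph2 and Hnrnph3, the share of Hnrnph1 was 76.04% and 83.8% in tumor #1 and 83.6% and 80.0% in tumor #2, and that of Hnrnpf 21.9%, 14.7%, 14.1% and 16.6%, so that the shifts between the sorted fractions were wider here than in the sets above and of opposite direction in the tumors.

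Many of these genes have processed pseudogenes, copies of their mRNA inserted elsewhere in the genome. A search of the annotated transcripts found 90 such copies in the table for 24 of the 43 members, and the copies of 8 members had a mean of at least 10 TPM. The copies of 3 members exceeded the gene itself. For Snrpf the copies summed to 1366 and 1481 TPM in tumor #1 and to 825 and 687 TPM in tumor #2, while Snrpf was at 35.4, 30.6, 27.2 and 29.9 TPM, which made the copies 35.4 times the gene on average. For Snrpd2 they summed to 207, 257, 128 and 111 TPM beside 34.1, 36.7, 26.9 and 24.8 TPM of the gene, and for Hnrnpa3 to 706, 668, 479.6 and 426 TPM beside 271, 308, 287 and 324 TPM.

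Nearly all of the Snrpf copy signal was listed under 1 pseudogene, Gm13092 on chromosome 4 (150315177 to 150315436, minus strand). The sequences are shown because they carry this result: Snrpf (chr10:93583029-93589706, minus strand) is given from base 2 to the last base of its coding sequence, counted from the A of the start codon, and Gm13092 over its whole length of 260 bases, both from GENCODE M21 and with differing bases in capitals.
Snrpf: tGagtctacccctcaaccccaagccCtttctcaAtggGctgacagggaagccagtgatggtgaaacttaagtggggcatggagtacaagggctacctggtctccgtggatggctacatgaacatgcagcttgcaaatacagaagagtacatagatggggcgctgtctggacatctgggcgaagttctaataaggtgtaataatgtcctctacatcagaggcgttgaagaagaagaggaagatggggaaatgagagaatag
Gm13092: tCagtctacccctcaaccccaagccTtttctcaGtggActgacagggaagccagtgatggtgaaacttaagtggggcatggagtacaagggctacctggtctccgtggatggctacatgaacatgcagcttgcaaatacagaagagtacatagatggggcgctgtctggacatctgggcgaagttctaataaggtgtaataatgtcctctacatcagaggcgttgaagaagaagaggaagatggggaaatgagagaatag
The 2 sequences differ at 4 of 260 bases, by the substitutions G3C, C27T, A35G and G39A (base of Snrpf, position in its coding sequence, base of Gm13092), and all 4 lie near the start. Of the stretches of 60 bases, the length of a read, that Gm13092 holds, 81.1% occur letter for letter in a Snrpf transcript.

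For Snrpg the overlap was complete. The coding sequence of Snrpg (chr6:86371304-86379328, plus strand) and the whole of the pseudogene Gm8186 on chromosome 17 (26098991 to 26099221, minus strand) are the same 231 bases, shown once, with no base in capitals because none differs.
Snrpg and Gm8186: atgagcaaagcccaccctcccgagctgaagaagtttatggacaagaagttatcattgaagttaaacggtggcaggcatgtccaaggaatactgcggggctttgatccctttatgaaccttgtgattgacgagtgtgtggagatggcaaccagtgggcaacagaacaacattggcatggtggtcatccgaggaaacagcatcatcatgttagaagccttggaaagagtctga
Gm8186 was listed at 156 and 144 TPM in tumor #1 against 115 and 85.2 TPM in tumor #2, and a read within these bases fits both genes. Likewise, all stretches of 60 bases of Gm5641, a copy of Hnrnpa3 (684, 646, 462 and 406 TPM), and of Gm10052, a copy of Hnrnpa1 (371, 282, 119 and 89.7 TPM), occur in the parent gene. The level of these members is therefore uncertain, and which part of the copy signal is read from the parent gene was not tested.

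**Figure D5:**
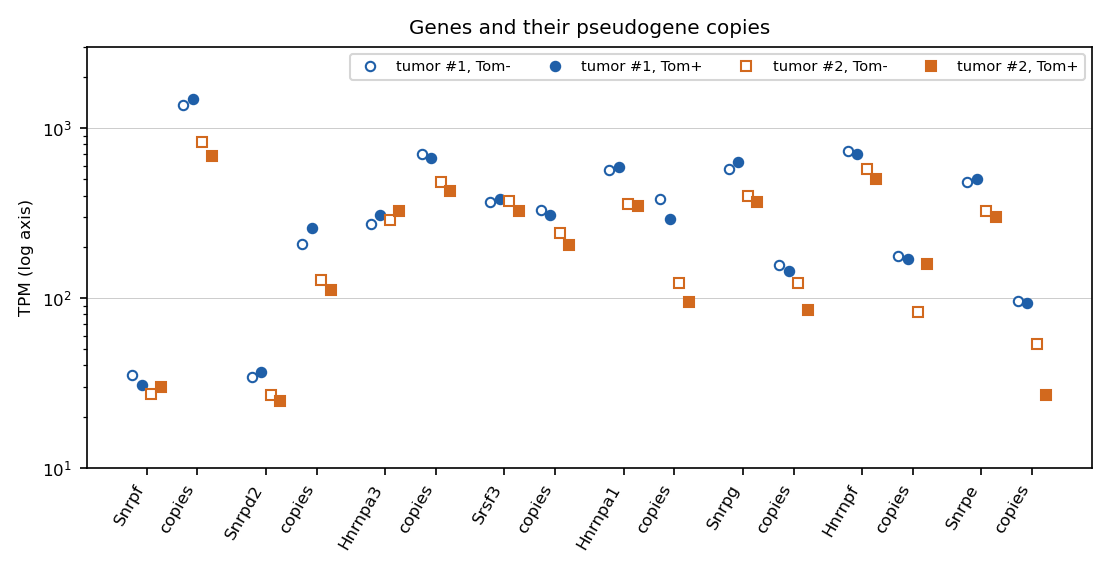
TPM of the 8 members whose pseudogene copies had a mean of at least 10 TPM, and the summed TPM of the copies, in each library (log axis, symbols as for the levels of the genes). The copies lie above the gene for Snrpf, Snrpd2 and Hnrnpa3, and for all 8 members both libraries of tumor #2 lie below both of tumor #1 in the copies.

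The copies were counted with the gene as an alternative chosen after these values were seen. The difference between the tumors then became -0.90 for Snrpf (SE 0.15), -0.87 for Snrpd2 (SE 0.18), -0.99 for Hnrnpa1 (SE 0.11) and -0.36 for Hnrnpa3 (SE 0.11), which had been 0.08. The snRNP median moved from -0.29 to -0.38. No member was called in either comparison (0 of 40 each), and the difference of Hnrnpa3 between Tom+ and Tom- cells went from 0.18 to -0.02.

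Genes that work with these families were read out as 7 lists with 150 tested genes. Between Tom+ and Tom- cells 0 of 150 were called, against 0.0% of all genes tested, and 4 had an unadjusted p-value below 0.05, a smaller share than the 4.67% of all genes tested. Ddx23, which encodes the U5 helicase that releases U1 from the 5' splice site, was at 27.8 and 38.5 TPM in tumor #1 against 34.8 and 47.2 TPM in tumor #2 (log2 difference 0.44, SE 0.14, unadjusted p = 0.0493 and adjusted p = 0.936 from limma). Ptbp2, the paralog of Ptbp1 best known from neurons, was at 9.996 and 25.0 TPM in tumor #1 against 51.0 and 76.01 TPM in tumor #2 (0.90, SE 0.24, unadjusted p = 0.0288 and adjusted p = 0.936 from limma).

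Crnkl1 and Slu7, a factor of the catalytic spliceosome and one of the second step of splicing, were lower in Tom+ cells of both tumors. Crnkl1 was at 25.2 and 16.1 TPM in tumor #1 against 18.1 and 11.4 TPM in tumor #2 (-0.62, SE 0.16, unadjusted p = 0.0286 and adjusted p = 0.936 from limma). Slu7 was at 35.5 and 25.6 TPM and at 54.0 and 37.5 TPM (-0.48, SE 0.14, unadjusted p = 0.0397 and adjusted p = 0.936 from limma). Without the tumor block Ddx23, Ptbp2, Crnkl1 and Slu7 were no longer past the unadjusted limit.

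By list, 36 of 36 genes of U1, U2 and tri-snRNP proteins were tested, with 1 past the unadjusted limit (Ddx23, higher) and Sf3a2 next in size (-0.35). Of 20 genes of the Prp19 complex and splicing helicases, 2 were past it, both lower. Among the 32 tested of 37 other RNA-binding splicing regulators there was 1 (Ptbp2), followed by Mbnl2 (-0.35). There was no gene past it among 8 minor spliceosome proteins (largest Rnpc3 with 0.50 and Snrnp25 with -0.38), 23 SR protein kinases and SR-related proteins (Srek1 with 0.56 and Srpk3 with -0.55), 16 genes of Sm ring assembly (Gemin5 with -0.36 and Smn1 with 0.34) and 15 factors of nonsense-mediated decay (Smg1 with 0.33 and Smg9 with -0.29).

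Between the tumors, 2 of the 150 genes were called, a smaller share than the 4.33% of all genes tested. Tia1, which encodes a protein that helps U1 to bind weak 5' splice sites, was at 42.5 and 39.3 TPM in tumor #1 against 109 and 101 TPM in tumor #2 (1.34, SE 0.13, adjusted p = 0.0480). Smg9, a partner of the decay kinase SMG1, was at 9.52 and 8.31 TPM against 34.0 and 25.3 TPM (1.61, SE 0.18, adjusted p = 0.0497). Both calls lay at the limit: over 11 alternative settings the adjusted p of Tia1 ranged from 0.0157 to 0.119 (called in 6) and that of Smg9 from 0.0194 to 0.123 (called in 5). Of the 23 SR protein kinases and SR-related genes, 12 had an unadjusted p-value below 0.05, all higher in tumor #2, against 25.7% of all genes tested, and the list median was 0.44, against 0.20 for all genes. Clk1, a kinase of SR proteins whose own mRNA is known to be held back by intron retention, was at 86.8 and 145 TPM in tumor #1 against 263 and 275 TPM in tumor #2 (1.25, SE 0.22, adjusted p = 0.0692). Srpk2, another SR protein kinase, was at 8.13 and 9.18 TPM against 27.6 and 25.1 TPM (1.502, SE 0.19, adjusted p = 0.0543). The list of U1, U2 and tri-snRNP proteins had a median of -0.22, with 23 of 36 lower in tumor #2. Over all genes tested, 4329 of 11339 were lower, as were 1783 of 3804 protein-coding genes with a mean of at least 20 TPM. Past an unadjusted limma p-value of 0.05, this list had 5 genes higher and 5 lower. Smn1, the scaffold of Sm ring assembly, was at 229.5 and 229 TPM against 82.9 and 134 TPM (-1.11, SE 0.23, adjusted p = 0.0787). The list of Sm ring assembly had a median of 0.05, with 9 of 16 higher in tumor #2, among them Tgs1 with 1.26 (SE 0.24, adjusted p = 0.0730). Clk1, Srpk2, the list that holds both and Tgs1 were picked out after their values were seen. Smn1 was named by its difference for Tom status, and no rule named it for this comparison.

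Promoter windows of RefSeq (GRCm38.p6) were found for 39 of the 43 members, 55 windows in all, and the 250 bases before each start were searched on both strands for 6 motifs. The E-box CACGTG, which MYC and MAX can bind, was in 9.09% of the members' windows and in 6.02% of all 32851 windows. It was in windows of Hnrnpa3, Hnrnpd, Hnrnpf and Snrpa and in none of the 11 SR genes. The GC box GGGCGG was in 69.1% of the members' windows and 32.7% of all windows, the ETS core CCGGAAG in 21.8% and 6.91%, the NRF1 site in 16.4% and 3.74%, CCAAT in 43.6% and 33.8%, and TATAAA in 9.09% and 12.4%. The background of all windows was not limited to genes tested here and was not matched for G and C content. Genes with several windows count once for each window. For 44 of the 55 windows the bases after the start lay in an annotated transcript of the gene, and all 55 were counted. A match is a string of letters and does not show that a factor binds.

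The windows of Srsf9, higher in tumor #2, and Hnrnpa0, lower in tumor #2, are printed as examples that went in opposite directions, chosen as the largest difference of their family among the 7 members with a single window outside annotated exons. No window of an snRNP gene is printed, and whether any snRNP gene met these conditions is not reported. The printed windows are Srsf9 at chr5:115326927-115327176 (plus strand) and Hnrnpa0 at chr13:58128557-58128806 (minus strand). Each runs 5' to 3' up to the base before the start, with motif matches in capitals.
Srsf9: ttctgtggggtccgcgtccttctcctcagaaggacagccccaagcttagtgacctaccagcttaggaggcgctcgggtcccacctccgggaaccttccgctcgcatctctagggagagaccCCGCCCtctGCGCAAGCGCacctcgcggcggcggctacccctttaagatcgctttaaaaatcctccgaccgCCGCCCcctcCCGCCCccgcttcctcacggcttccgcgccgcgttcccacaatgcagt
Hnrnpa0: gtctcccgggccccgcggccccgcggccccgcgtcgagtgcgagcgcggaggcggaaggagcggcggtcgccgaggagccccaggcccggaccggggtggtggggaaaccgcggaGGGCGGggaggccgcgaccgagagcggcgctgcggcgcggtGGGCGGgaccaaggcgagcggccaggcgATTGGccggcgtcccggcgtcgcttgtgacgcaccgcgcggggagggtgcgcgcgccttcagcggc
Srsf9 holds 4 matches, of which 3 are GC boxes and 1 an NRF1 site, and Hnrnpa0 holds 2 GC boxes and 1 CCAAT box. Both windows are rich in G and C, at 65.2% and 81.2%, and neither holds the E-box.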

How the data were processed

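RNA of sorted B220+ IgM+ splenocytes (PicoPure extraction, NEBNext RNA library kit) was sequenced as single reads of 60 bases. The authors called bases with CASAVA 1.8, trimmed reads with Cutadapt, discarded those under 30 bp, and quantified transcripts of GRCm38 with Salmon 1.9, and they deposited TPM per gene. Depth is not kept in TPM, and the strand setting is not given in the sources used here. TPM are not counts, so the paired edgeR test of the study was replaced by limma 3.58.1 (R 4.3.3) on log2(TPM + 1), with tumor and Tom status as terms and a variance trend, over genes with at least 1 TPM in 2 libraries. limma's p-values, adjusted or not, come from this one fit across 11339 genes (prior degrees of freedom 2.21). Tumor is a block because both fractions of a pair come from the same mouse, and within-tumor deviations were correlated (Pearson's r across genes 0.626, genes not being independent). With both terms fitted, the 1 residual degree of freedom of a gene is how far its Tom difference disagreed between the tumors. The p-values, SE and intervals of both comparisons rest on it and on the variance trend across genes. For the comparison of the tumors they therefore do not measure the variation between mice.

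Gene types and positions came from GENCODE M21, which matched 34652 of 34866 identifiers. Pseudogene copies were found with blastn 2.17.0 (identity of at least 90% over at least 200 bases and 50% of the copy). Values were summarised with pandas 2.3.3 in Python 3.11.15. The symbol rule itself uses no expression value, but the members and lists were chosen with earlier results of these data known. Named were, in each family, the 3 largest differences of each comparison, the 2 highest and 2 lowest levels and the paralog sets, and in each other list the 2 largest differences for Tom status and called genes. Alternatives were other pseudocounts (0.1 and 0.5), no filter, a mean of at least 5 TPM, trimmed-mean (30% and 5% trimmed) and quantile scaling, rescaling to nuclear protein-coding genes other than immunoglobulin genes, pseudogenes added, no trend, no block and leaving out a tumor. The promoter of the Cre allele and 1 marker list are not reported here.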

Additional observations from a re-analysis of the deposited data

How the results depend on the processing

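Of the alternative values of the main results, 219 stayed within their limits and 21 moved. Where the cause is not named it was not tested. The members' count at an unadjusted p below 0.05 between Tom+ and Tom- was 0, and 1 (Srsf11) with quantile normalization and 1 with rescaling to protein-coding genes. Their adjusted count between tumors was 0, and 3 with trimmed-mean scaling, 11 with protein-coding rescaling and 11 with no Tom status term. Over all genes that count was 491, and 34 with a mean of at least 5 TPM, 275 with no variance trend, 2296 with protein-coding rescaling, 2231 with no Tom status term and 1 with a pseudocount of 0.1, no filter or quantile normalization. The hnRNP median for Tom status was 0.025 with protein-coding rescaling, and -0.071 to 0.040 when either tumor was left out, which gives values without a test. Medians between tumors moved with trimmed-mean scaling to 0.021 (SR), -0.39 (hnRNP) and -0.53 (snRNP), and for snRNP genes to -0.40 with quantile normalization, -0.21 with protein-coding rescaling and -0.38 with pseudogene copies added. Unadjusted counts for Tom status in the lists were 1 for U1, U2 and tri-snRNP proteins (0 with no variance trend), 2 for the Prp19 complex and helicases (1 with no variance trend), 0 for SR protein kinases (1 with protein-coding rescaling) and 1 for other regulators (2 with quantile normalization and 2 with protein-coding rescaling). Without the replicate block, which pairs the fractions of a mouse, the first, second and last of these lists had 0, and the members had 0 adjusted and 0 unadjusted. Of 1254 values of single named genes, 1209 kept their side of the limit, 34 passed it only in the alternative, 11 (Tia1 and Smg9) lost it and 0 called values changed sign.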
